A study of Mus musculus with 12 samples.

Results

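The spread of gene expression between tumors that received the same treatment was described in all 12 of 12 whole mammary tumors of the series. From each log2(TPM + 1) value the mean of its own treatment group was subtracted, where TPM is a level corrected for gene length and scaled within each library, and the genes listed summed to 609418 to 725506 TPM in a tumor. The residual SD of a gene is the SD of these residuals over the 12 tumors with 8 degrees of freedom. Of 21960 listed genes, 14735 reached 1 TPM in 3 or more tumors and were kept, and 4214 were listed at 0 in every tumor. All mice were C57BL/6 females of the MMTV-PyMT strain, in which the promoter of a mouse mammary tumor virus (MMTV) drives the middle T antigen of polyoma virus. The 3 tumors of the IgG1 group came from mice given control antibody. Those of the anti-PD-1 group, also 3, came from mice given an antibody to the T cell checkpoint receptor PD-1. Both antibodies were given at 20 mg/kg at first and 10 mg/kg later, from a tumor diameter of 0.6 cm. It was assumed that each tumor came from a different mouse. The tumors of the DOX/IgG1 and DOX/anti-PD-1 groups, also 3 each, came from mice treated from a diameter of 1 cm. These mice received 5 mg/kg doxorubicin weekly for 5 weeks and 10 mg/kg of the same antibodies. Antibody was also given at shorter intervals without doxorubicin than with it. Doxorubicin, starting size, antibody dose and antibody schedule therefore changed together and cannot be told apart. The promoter is active mainly in mammary epithelium, and a mouse of this model can carry tumors in every mammary gland. The luminal epithelial keratin gene Krt18 lay between 376 and 750 TPM in the 12 tumors, and the 16 luminal genes examined summed to between 3537 and 5981 TPM. TPM values keep no read number, and sequencing depth is therefore unknown.

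Bulk RNA from a tumor is a mixture. Carcinoma cells, fibroblasts, vessels and immune cells contribute to it, and so do fat, muscle, skin and salivary tissue when they lie next to the excised gland. Anthracyclines such as doxorubicin damage DNA and block topoisomerase II, and antibodies to PD-1 release T cells from inhibition. Genes that are used by 1 cell type tend to move together when the share of that cell type varies from sample to sample.

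The library labelled DOX/IgG1 1 stood apart from the others. Its correlation across genes with any other tumor was 0.858 to 0.892, while all pairs of tumors ranged from 0.858 to 0.956 (genes are not independent replicates). The distance of a tumor from its group mean, taken as its root mean squared residual over all genes kept, was 0.547, 0.446 and 0.460 in IgG1 tumors 1, 2 and 3. It was 0.507, 0.397 and 0.404 in anti-PD-1 tumors, and 0.712, 0.511 and 0.514 in DOX/IgG1 tumors. In DOX/anti-PD-1 tumors it was 0.561, 0.511 and 0.591. Thus DOX/IgG1 1 lay farthest from its group, with 15.6% of the whole residual sum of squares, and anti-PD-1 2 lay closest, with 4.85%. Among the genes kept, 962, 656 and 567 were listed at 0 in IgG1 tumors, 988, 511 and 435 in anti-PD-1 tumors, 1364, 441 and 578 in DOX/IgG1 tumors, and 1033, 496 and 1027 in DOX/anti-PD-1 tumors. Tumor 1 had the most zeros in each group, and except in DOX/anti-PD-1, where tumor 3 lay farthest, it also lay farthest from the group mean. The part of these zeros in the distances was not tested.

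**Figure D1:**
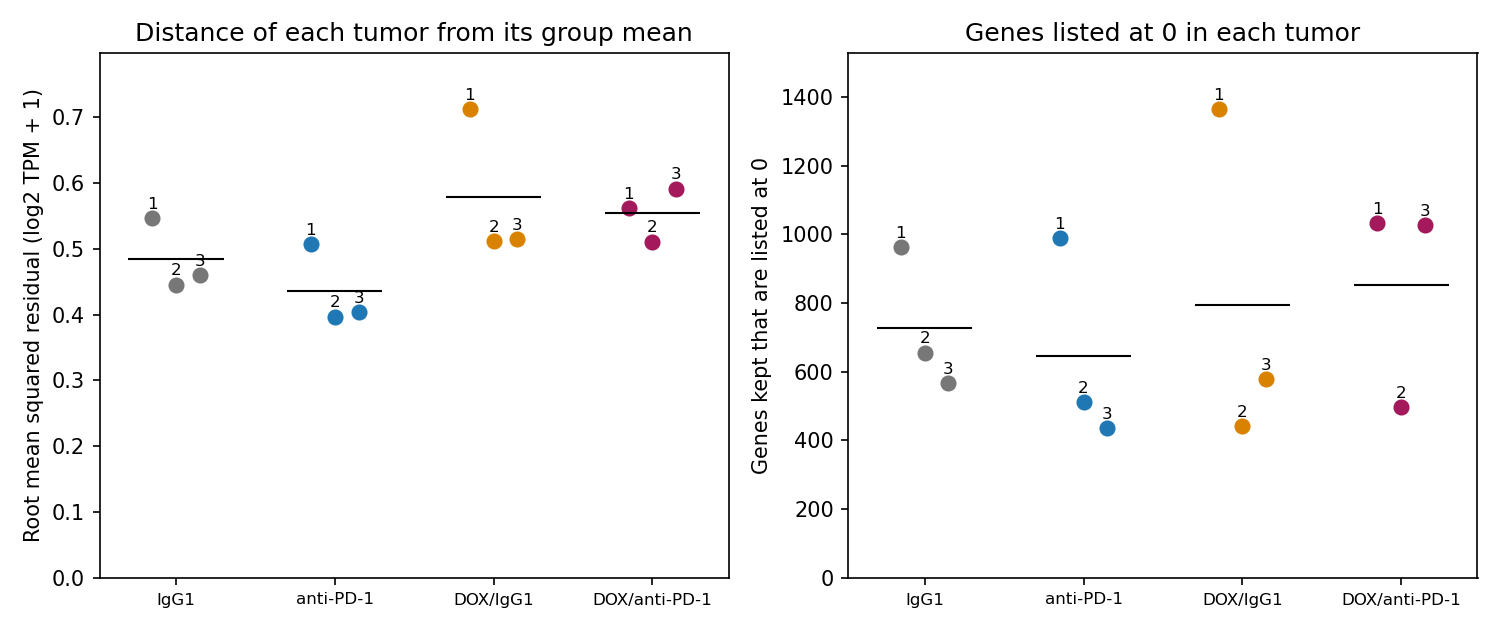
Distance of each tumor from its group mean (left, root mean squared residual of log2(TPM + 1)) and the number of kept genes listed at 0 (right). Each point is 1 tumor, the number beside it is the tumor's number, and the line is the mean of 3 tumors. DOX/IgG1 1 is highest in both plots, at 0.712 and 1364 genes.

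Distances were larger with doxorubicin, 0.567 ± 0.0782 (SD, n = 6) against 0.460 ± 0.0583 (n = 6), a difference of 0.107 (exact permutation test over 924 arrangements, two-sided, p = 0.0152). Residuals of a group sum to 0, so its 3 values are not independent and this p is approximate. The result depended on the tumors included. Without DOX/IgG1 1 it was 0.0204 (exact permutation p = 0.684), without DOX/anti-PD-1 1 it was 0.0779 (p = 0.119) and without DOX/anti-PD-1 3 it was 0.0668 (p = 0.236). Residuals from a mean of 2 tumors are smaller by construction than those from a mean of 3, and the 2 distances of such a group are equal, so these p are approximate too. When the distances of such a group were rescaled for this, a step chosen after these values had been seen, the difference was 0.0432 without DOX/IgG1 1 (exact permutation p = 0.303), 0.107 without DOX/anti-PD-1 1 (p = 0.0152) and 0.0945 without DOX/anti-PD-1 3 (p = 0.0368). The rescaled difference without IgG1 2 was 0.0959 (exact permutation p = 0.0693). Over genes with a mean of at least 10 TPM the difference of all 12 tumors was 0.0870 (exact permutation p = 0.0563), and as a median absolute residual it was 0.0357 (p = 0.182). With the replicate number as a block it was 0.0506 (exact permutation p = 0.0974), and whether tumors of the same number share a factor was not tested. The number of genes listed at 0 was 823 ± 372 (n = 6) with doxorubicin and 687 ± 235 (n = 6) without (exact permutation p = 0.485). Between tumors with and without anti-PD-1 the distances were 0.495 ± 0.0799 and 0.532 ± 0.0959 (n = 6 each), a difference of -0.0365 (exact permutation p = 0.5). Its sign turned without IgG1 1 (0.00318, and -0.0192 after rescaling, where it did not turn) and without DOX/IgG1 1 (0.0570, and 0.0341 after rescaling), and without DOX/anti-PD-1 3 it was -0.0909 (exact permutation p = 0.0476), or -0.0632 after rescaling (p = 0.271).

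The residual SD of the median gene was 0.48 on the log2 scale, and 90% of genes lay between 0.22 and 1.14. It exceeded 1 in 1186 genes (8.05%), and exceeded 2 in 74 genes. Variation within groups made up 69.6% of the total sum of squares, and 72.7% of the degrees of freedom were within groups. At rank 100 by residual SD stood Calca, the gene of the peptide CGRP (1.86), and just outside this rank Gm10401 (also 1.86). Of the 100 most variable genes, 93 were listed at 0 in at least 1 tumor, against 17.9% of all genes kept. A 0 in these files can be an estimate that failed. Rps12, which encodes a ribosomal protein and ranked 10, was at 104, 12.6 and 0 TPM in IgG1 tumors, 18.5, 50.6 and 13.4 in anti-PD-1 tumors, 55.3, 0 and 0 in DOX/IgG1 tumors, and 74.2, 40.1 and 0 in DOX/anti-PD-1 tumors. Every cell uses this gene, so zeros are given here only as listed.

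Genes with near-identical copies filled much of the top of the list. For each gene, the share of the 75-base windows of its transcripts that also occur in another gene was counted. This share exceeded 50% in 52 of the 100 most variable genes, against 3.09% of all genes kept, and exceeded 10% in 68, against 8.91%. Among the 100 genes were 26 of 63 histone genes kept, and 23 of 709 genes with names beginning with Gm or ending in Rik. Also among them were 12 of 20 skeletal muscle genes and 8 of 103 genes with ribosomal protein names. Red blood cell genes gave 3 of 5, and salivary genes 2 of 14. Histone genes show why single copies are uncertain. H2A proteins form the nucleosome core with H2B, H3 and H4, are made mainly in S phase, and are encoded by many intron-less copies. The following stretch of coding sequence is shown because it occurs letter for letter in 13 H2A genes, among them Hist1h2ag on the minus strand of mm10 at chr13:22042649-22042723 and Hist1h2ap, also on the minus strand, at chr13:21833197-21833271.
H2A window: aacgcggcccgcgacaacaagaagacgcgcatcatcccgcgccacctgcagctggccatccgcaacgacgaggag
A read within it could be assigned to any of these genes. The file values of Hist1h2ag (residual SD 3.24, rank 2) were 0, 36.0 and 121 TPM in IgG1 tumors, 0, 3.62 and 55.3 in anti-PD-1 tumors, 0, 0 and 80.7 in DOX/IgG1 tumors, and 0, 22.4 and 0 in DOX/anti-PD-1 tumors. Hist1h2ap (also 3.24, rank 3) was at 209, 145 and 73.8, at 239, 313 and 239.8, at 232, 0 and 0, and at 299, 179 and 0 TPM in the same order. DOX/IgG1 2 and DOX/anti-PD-1 3 were at 0 for both copies, and the other zeros fell in different tumors.

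The TPM of near-identical genes were also summed, a step added after the data were seen. A sum over many genes varies less than its members by construction, and no sum of unlike genes was set beside it. The 19 listed H2A genes had a median residual SD of 2.09 among the 17 kept, and their sum one of 0.84. For all 68 replication-dependent histone genes the median of the 63 kept was 1.42 and the sum had 0.70. The histone sum was 4058, 2864 and 2010.5 TPM in IgG1 tumors, 2738, 3824 and 3815 in anti-PD-1 tumors, 2453, 950.3 and 1217 in DOX/IgG1 tumors, and 4085, 3238 and 1046 in DOX/anti-PD-1 tumors. DOX/IgG1 2 and DOX/anti-PD-1 3 were lowest in the whole set. Zinc finger genes Zfp967 and Zfp969 (both 3.13, ranks 4 and 5) share all windows and had identical values in every tumor, and so did 3 further pairs. Gm10260 ranked first (3.55, 54.2% of windows shared), at 20.2, 0 and 0 TPM in IgG1 tumors, 0, 0 and 289 in anti-PD-1 tumors, 500 (499.6), 189 and 11.21 in DOX/IgG1 tumors, and 0, 0 and 86.3 in DOX/anti-PD-1 tumors. Its level is uncertain for the same reason, as is that of Rps12 (19.5% of windows shared).

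**Figure D2:**
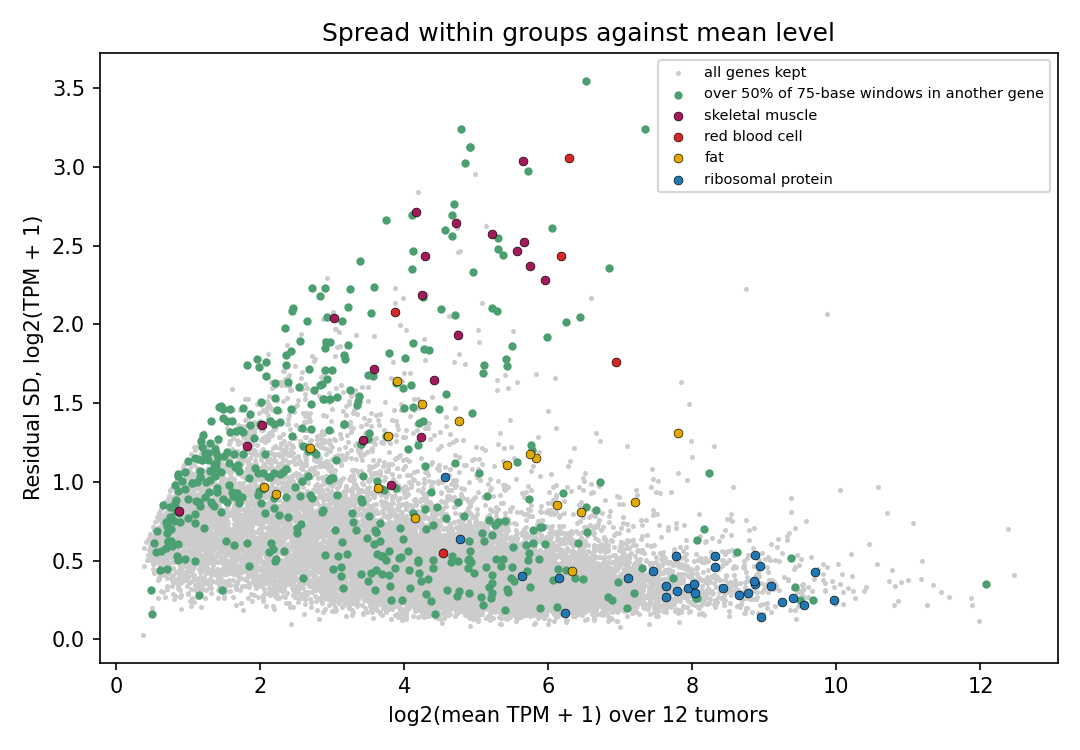
Residual SD of each gene kept (vertical axis, log2(TPM + 1)) against log2 of its mean TPM + 1 over the 12 tumors (horizontal axis). Each point is a gene. Green marks genes with over 50% of their 75-base windows in another gene, and the other colors mark 4 programs. Skeletal muscle genes (median 2.11) and red blood cell genes (2.08) lie high, and ribosomal protein genes of the list examined (median 0.34) lie low.

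Skeletal muscle genes were the most variable of the programs examined. All 20 of 20 listed genes were kept, all 20 exceeded the median of all genes, and their median residual SD was 2.11 against 0.48. They moved as a unit: the median correlation of a gene with the mean of the others was 0.96, and 18 of 20 exceeded 0.5, with myoglobin (Mb) lowest at 0.18. Without the genes that share over 10% of windows, 8 of the 10 most variable genes were of this list. Their sum was 281, 94.7 and 1026 TPM in IgG1 tumors, 1127, 119 and 59.0 in anti-PD-1 tumors, 118, 302 and 369 in DOX/IgG1 tumors, and 1924, 31.8 and 362 in DOX/anti-PD-1 tumors. The highest tumor of DOX/IgG1 lay below the highest of each other group, and the groups overlapped. Acta1, skeletal alpha actin (chr8:123891769-123894751, mm10), was at 42.4, 9.91 and 107 TPM, at 86.7, 15.4 and 6.72, at 12.1, 51.6 and 87.9, and at 193, 0 and 16.6 TPM in the same order. Myh4, the myosin heavy chain of fast 2B fibers (chr11:67238029-67260446), was at 8.69, 4.02 and 151, at 126, 1.38 and 0.62, at 3.73, 30.1 and 36.8, and at 186, 0 and 42.1 TPM. In both genes DOX/anti-PD-1 1 was highest and DOX/anti-PD-1 2 was listed at 0, and the groups overlapped. Pvalb, a calcium buffer of fast fibers, and Tnnc2, fast troponin C, had residual SDs of 2.71 and 2.64. The giant sarcomere protein gene Ttn, with no shared window, ranged from 0.51 TPM in DOX/anti-PD-1 2 to 206 TPM in DOX/anti-PD-1 1. In bulk RNA, fewer cells of a type and less RNA per cell cannot be told apart.

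As muscle genes moved together, their promoters were searched on both strands, in the 250 bases before the start site given by RefSeq (GRCm38.p6). The letters CAGCTG form an E-box of the kind that myogenic factors such as MyoD bind, and they were the first motif. The second was the TATA box, taken as TATAAA. Of the 20 genes 16 were matched. The E-box was found in 7 of the 16, against 13.0% of 32851 promoters, and the TATA box in 5 of 16, against 12.4%. The promoters of the lead gene and of the most variable gene are shown, with these letters in capitals on either strand. The first lies on the minus strand at chr8:123894776-123895025 and the second on the plus strand at chr11:67237562-67237811.
Acta1: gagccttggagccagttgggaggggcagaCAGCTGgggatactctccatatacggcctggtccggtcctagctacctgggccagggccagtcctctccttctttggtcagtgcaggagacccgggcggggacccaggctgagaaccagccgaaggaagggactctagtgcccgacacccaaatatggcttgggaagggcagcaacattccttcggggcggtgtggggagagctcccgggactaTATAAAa
Myh4: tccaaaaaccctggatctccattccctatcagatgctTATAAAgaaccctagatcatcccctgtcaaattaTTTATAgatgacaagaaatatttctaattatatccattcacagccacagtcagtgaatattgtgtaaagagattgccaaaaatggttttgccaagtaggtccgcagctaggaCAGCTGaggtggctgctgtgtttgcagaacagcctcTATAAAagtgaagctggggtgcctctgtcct
Acta1 has 1 E-box and 1 TATA box in this window, and Myh4 has 1 and 3. The windows of Pvalb, Tnnc2 and Ttn hold neither set of letters. A match is a description of the sequence, not a bound site.

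**Figure D3:**
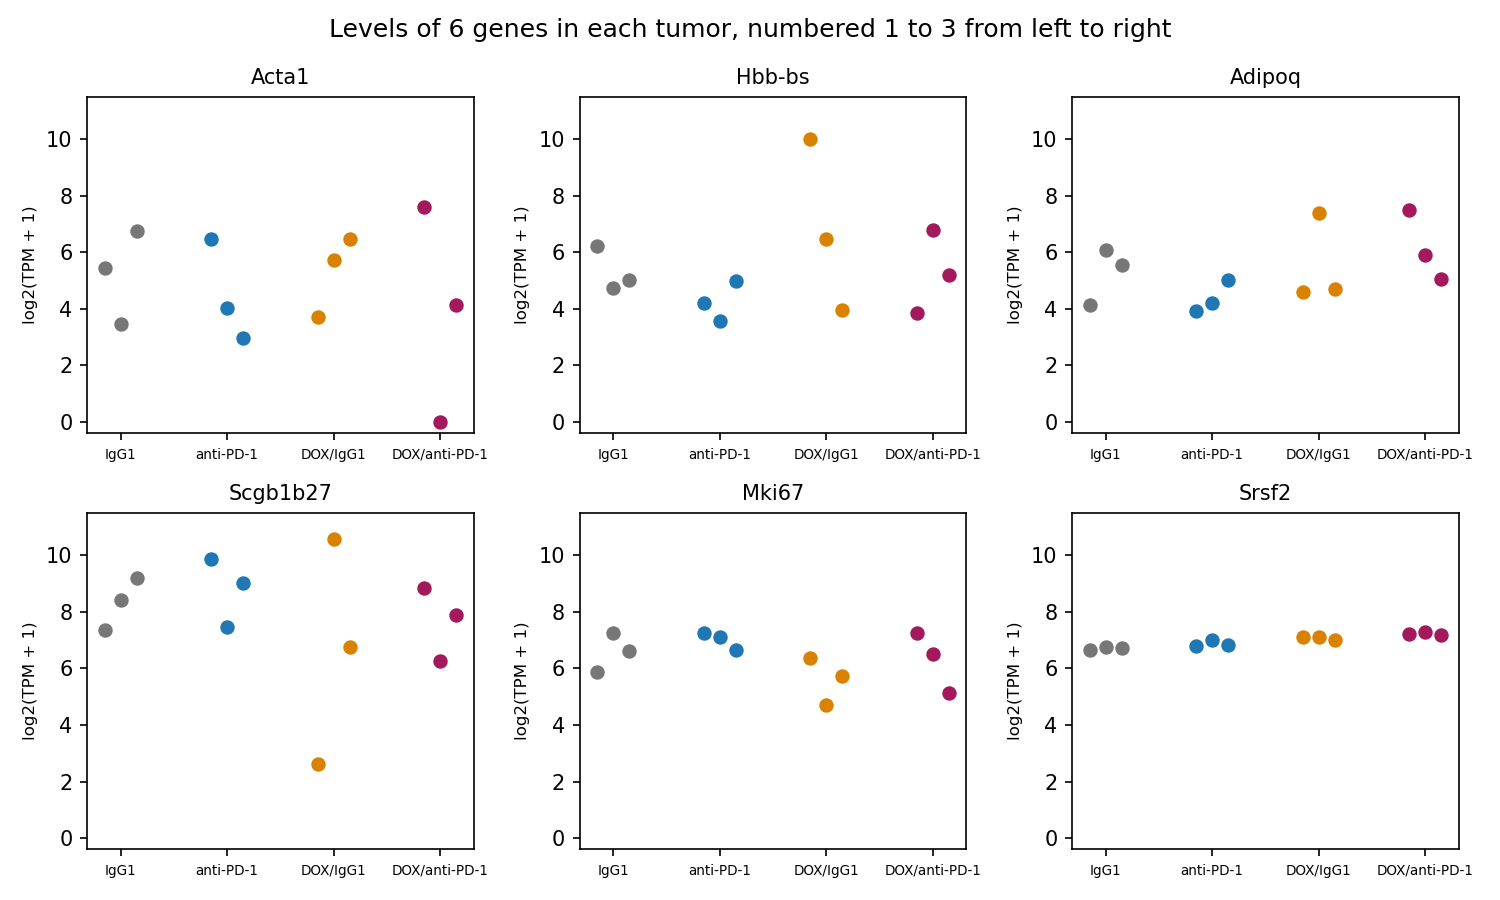
Level of 6 genes in each tumor as log2(TPM + 1), with 3 points per group for tumors 1, 2 and 3 from left to right. Acta1 (skeletal muscle), Hbb-bs (red blood cells), Adipoq (fat) and Scgb1b27 (a secretoglobin) vary within groups, Mki67 (mitosis) less so, and Srsf2, among the least variable genes, stays close to 7.

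Red blood cell genes followed (median residual SD 2.08, 5 of 8 listed genes kept), and DOX/IgG1 1 was the highest tumor. Hbb-bs, an adult beta globin gene (chr7:103826534-103828096), was at 74.0, 25.8 and 31.3 TPM in IgG1 tumors, 17.4, 10.9 and 30.6 in anti-PD-1 tumors, 1009.8, 87.0 and 14.6 in DOX/IgG1 tumors, and 13.4, 108 and 35.9 in DOX/anti-PD-1 tumors. It shares 51.5% of its windows and is uncertain as a single gene. The alpha globin pair Hba-a1 and Hba-a2 is near-identical, so their sum was taken: it was 1193 TPM in DOX/IgG1 1 and 4.66 TPM in DOX/IgG1 3, with a residual SD of 2.38. Alas2, the heme synthesis enzyme of red cell precursors, varied far less (0.55). Without DOX/IgG1 1 the median of the program was 1.65.

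Fat genes had a median residual SD of 1.11 over 17 of 18 genes, and the median correlation with the rest was 0.88. Adipoq, which encodes the adipocyte hormone adiponectin (chr16:23146536-23158028), was at 16.5, 66.7 and 45.4 TPM in IgG1 tumors, 14.2, 17.3 and 31.5 in anti-PD-1 tumors, 23.4, 164 and 25.1 in DOX/IgG1 tumors, and 177, 57.9 and 32.1 in DOX/anti-PD-1 tumors. DOX/IgG1 2 and DOX/anti-PD-1 1 were the high tumors, and Ucp1, the marker of brown fat, was not kept. The lipid droplet gene Cidec was the most variable of the list (1.64, from 1.32 to 37.8 TPM).

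Genes of salivary and related secretions varied by tumor and not as 1 unit (median 1.02 over 14 of 18 genes, median correlation with the rest 0.51). Scgb1b27 and Scgb2b27, a neighboring pair of secretoglobin genes, summed to 662, 1479 and 2131 TPM in IgG1 tumors, 2812, 616 and 2331 in anti-PD-1 tumors, 15.1, 3511 and 474 in DOX/IgG1 tumors, and 1006, 385 and 869 in DOX/anti-PD-1 tumors. DOX/IgG1 1 and 2 were thus the lowest and the highest of all 12. Defb1, a defensin (2.46), was at 0, 0 and 16.4 TPM, at 0, 2.27 and 0.68, at 0, 136 and 86.4, and at 4.49, 43.4 and 26.5 TPM in the same order. Amtn, the gene of the enamel protein amelotin (2.17), was at 501.25 and 426 TPM in DOX/IgG1 2 and 3 and at 2.29 in DOX/IgG1 1. For this gene the other 9 tumors lay between 3.31 and 49.6. Neither Defb1 nor Amtn is on the salivary list, and their source was not tested. Skin and hair genes had a median of 0.99 over 12 of 18, with Flg, filaggrin, at 23.9 TPM in DOX/IgG1 3 and at most 4.71 in the others. The 9 kept genes of nerve and glia had 0.69, and 0.45 without DOX/IgG1 1. Lymph node genes (5 of 10 kept) had 0.67, and their lead Cr2 was not kept.

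The spread of luminal and basal genes was smaller without 1 tumor. The median residual SD was 0.71 over 16 luminal genes and 0.92 over 12 basal genes, and without DOX/IgG1 1 it was 0.35 and 0.64. In that tumor the mean residual was -1.03 for luminal and -1.13 for basal genes. Not all luminal genes moved together: Elf5, a factor of alveolar luminal cells, had r = -0.64 with the mean of the others, and Epcam, an adhesion gene and the most abundant of the list, had -0.28. Summed luminal TPM was 3808 in that tumor, and lower in 3 others. Krt18, the luminal lead, had a residual SD of 0.35. Areg, the gene of the growth factor amphiregulin and the most variable luminal gene (1.92), was at 26.9, 19.6 and 84.6 TPM in IgG1 tumors, 22.0, 3.17 and 40.4 in anti-PD-1 tumors, 3.81, 8.46 and 14.5 in DOX/IgG1 tumors, and 0, 12.8 and 75.6 in DOX/anti-PD-1 tumors. Krt14, the basal keratin (0.91), was highest in DOX/IgG1 1 at 112 TPM, against the mean residual of its list. Milk protein genes had a median of 0.91 (0.72 without DOX/IgG1 1). Their median correlation with the rest was 0.13, so they did not move as a unit. Csn2, beta casein, ranged from 0 in DOX/IgG1 3 to 36.9 TPM in IgG1 3. The whole milk protein list, with Csn3 most abundant, summed to between 2742.5 TPM in DOX/IgG1 1 and 11564 TPM in anti-PD-1 2. The squamous list (5 of 12 kept) had 0.91 (0.92 without DOX/IgG1 1) and a median correlation of 0.21.

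The spread of several immune programs was smaller without DOX/IgG1 1. The medians were 1.13 for mast cells (5 of 8 genes kept), 1.04 for B and plasma cells (4 of 11), 1.03 for NK and cytotoxic genes (8 of 10), 0.83 for neutrophils (8 of 16), 0.80 for T cells (11 of 16), 0.44 for macrophages (15 of 15) and 0.44 for MHC class II (7 of 7). Without DOX/IgG1 1 they were 0.92, 0.66, 1.02, 0.70, 0.73, 0.41 and 0.31. The median of all genes kept also fell, from 0.48 to 0.45, and the falls for macrophages and NK genes were no larger. The mean residuals of that tumor were -1.67 for B and plasma cells, -1.31 for NK and cytotoxic genes, -0.79 for T cells, -0.89 for MHC class II, -0.27 for macrophages and 0.55 for neutrophils. The neutrophil list did not move as a unit, with a median correlation with the rest of 0.13 and 0 of 8 genes above 0.5. Cd3e, a chain of the T cell receptor complex (1.45), was at 14.6, 5.56 and 2.27 TPM in IgG1 tumors, 0, 7.84 and 1.58 in anti-PD-1 tumors, 0.88, 24.6 and 15.7 in DOX/IgG1 tumors, and 3.31, 7.30 and 10.97 in DOX/anti-PD-1 tumors. The T cell list summed to 14.1 to 80.5 TPM, and B cell lead Cd79a was not kept. Adgre1, the macrophage receptor F4/80, had a residual SD of only 0.23 and lay between 19.4 and 34.3 TPM. Macrophage genes as a list were thus close to the median of all genes. S100a8, a neutrophil calgranulin (1.45), was at most 9.33 TPM, and 8 listed neutrophil genes, Ly6g and Mpo among them, were not kept. The neutrophil list summed to 7226 TPM in DOX/IgG1 1 and to 674 to 1778 TPM in the other 11 tumors. Its most abundant gene was Ltf, lactoferrin, which is also made by mammary epithelium.

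Among stromal lists, fibroblast and collagen genes had a median of 0.53, endothelium 0.53, lymphatic endothelium 0.75 and pericytes 0.40. Without DOX/IgG1 1 these medians were 0.38, 0.51, 0.73 and 0.37. Lum, the collagen-binding proteoglycan lumican (0.81), was at 18.5 TPM in DOX/IgG1 1 and at 122 and 119.5 TPM in DOX/IgG1 2 and 3.

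Programs of growth and stress varied in several tumors. Mitosis genes had a median residual SD of 0.71 over 18 genes (0.60 without DOX/IgG1 1), and the median correlation with the rest was 0.83. Their mean residual was 0.83 in DOX/IgG1 1, -0.72 in DOX/IgG1 2 and -0.76 in DOX/anti-PD-1 3. Mki67, the proliferation antigen Ki-67, was at 57.0, 152 and 98.1 TPM in IgG1 tumors, 149.7, 137 and 98.2 in anti-PD-1 tumors, 81.5, 25.2 and 51.7 in DOX/IgG1 tumors, and 149.7, 89.4 and 33.9 in DOX/anti-PD-1 tumors. DOX/IgG1 2 and DOX/anti-PD-1 3 were its lowest tumors. In DOX/anti-PD-1 3 the mean residual was -1.35 for 25 histone genes, -0.91 for 14 cholesterol synthesis genes, -0.51 for 16 S phase genes and 0.60 for 14 p53 target genes. Cdkn1a, the p53-induced cell cycle inhibitor p21, was at 24.0, 13.7 and 67.6 TPM in the DOX/anti-PD-1 tumors, and Msmo1, a sterol oxidase, at 78.7, 166 and 30.8. Interferon response genes (0.50) were highest relative to their group in anti-PD-1 1 (0.63), and immediate early genes in DOX/IgG1 2 (0.57). Hypoxia and glycolysis genes (0.51) were high in DOX/IgG1 1 (0.52) and DOX/anti-PD-1 2 (0.58). Median residual SDs were 0.78 for acute phase and defense, 0.54 for immediate early and for S phase genes, 0.43 for fatty acid synthesis, 0.42 for the respiratory chain, 0.39 for heat shock, 0.37 for the unfolded protein response and 0.34 for 30 ribosomal protein genes. In all, 28 of 36 programs had a median above that of all genes.

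**Figure D4:**
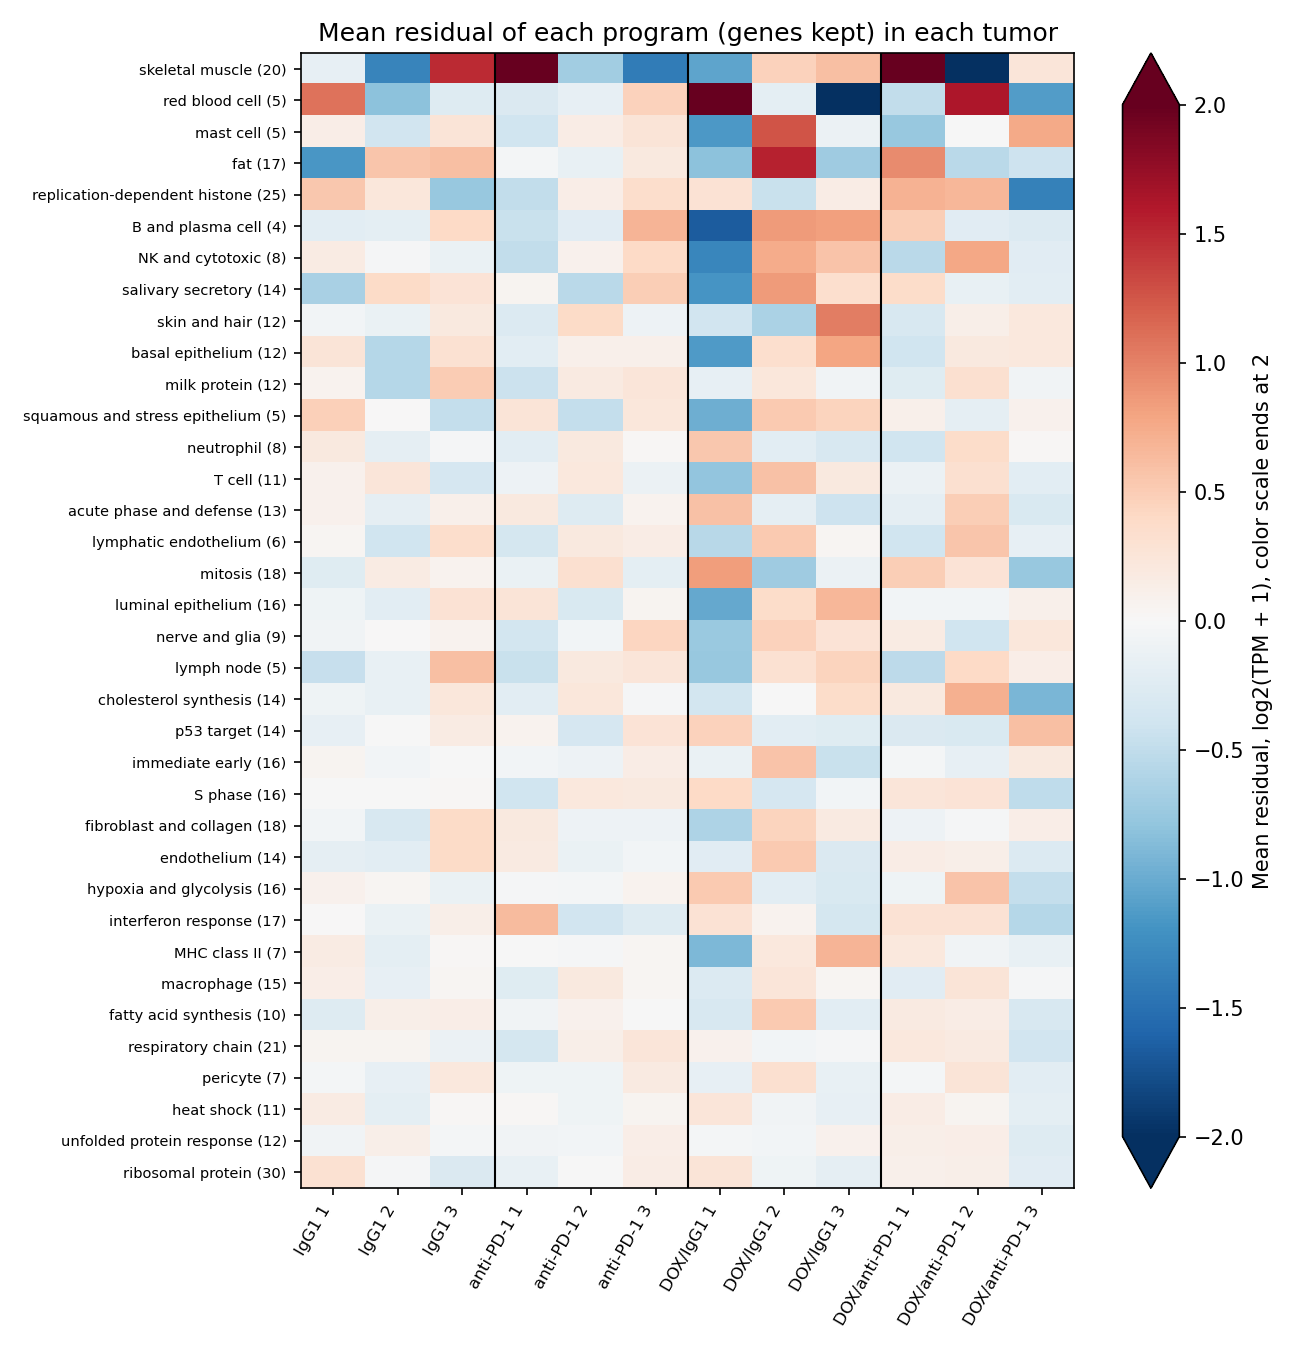
Mean residual of each program (rows, number of genes kept in brackets) in each tumor (columns), in log2(TPM + 1) after subtraction of the group mean. Red is above and blue below the group mean, the color scale ends at 2 on both sides, and rows are ordered by median residual SD. Muscle reaches 2.48 in DOX/anti-PD-1 1 and -2.72 in DOX/anti-PD-1 2, and red blood cell genes reach 3.07 in DOX/IgG1 1.

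Programs were compared by the correlation of their mean residuals over the 12 tumors, given as descriptions. Only some of the pairs among 36 programs are given, picked without a fixed rule. Macrophage and lymphatic endothelium genes had r = 0.93 (0.91 without DOX/IgG1 1), and fat and fatty acid synthesis 0.86 (0.83). Mitosis and S phase genes had 0.85 (0.79), and red blood cell and hypoxia genes 0.85 (0.73). Less easily read pairs were as strong: nerve with B and plasma cell genes 0.89 (0.70), and red blood cell with acute phase genes 0.88 (0.76). Milk protein and lymphatic endothelium genes had 0.85 (0.92), and fat and salivary genes 0.77 (0.80). Opposite signs were seen for mast cell and mitosis genes (-0.86, and -0.76 without that tumor) and for cholesterol synthesis and p53 targets (-0.79 and -0.77). Other relations rested on DOX/IgG1 1. Luminal and MHC class II genes had 0.87 with it and 0.29 without it, luminal and basal genes 0.83 and 0.36, and red blood cell and luminal genes -0.78 and -0.31. Skeletal muscle genes had -0.60 with hypoxia genes (-0.59 without that tumor), and -0.32 with NK and cytotoxic genes (-0.91). The value of -0.91 appeared only when that tumor was left out, among many pairs, and nothing is read from it. The first 4 principal components of the residuals held 25.1%, 16.8%, 13.9% and 12.6% of their variation. DOX/IgG1 1 had the weight 0.75 on the first, and on the second DOX/anti-PD-1 3 (0.69) stood against DOX/anti-PD-1 1 (-0.50). The third had Myh4, Pvalb, Tnnc2, Tnni2 and Ttn at its high end, and set anti-PD-1 1 (0.53) and DOX/anti-PD-1 1 (0.55) against DOX/anti-PD-1 2 (-0.51). IgG1 1 had the weight 0.73 on the fourth.

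Pairs of single lead genes were tested, 1 for each program. Over 561 pairs of 34 genes, 0 reached an adjusted p below 0.1 by exact permutation of residuals within groups, and the smallest adjusted p was 0.309. At an unadjusted p below 0.05 there were 32 pairs by Pearson and 26 by Spearman correlation. Over 561 pairs, about as many would pass this limit if no pair were related. The pairs described below are examples from these. The smallest p that the 1296 arrangements can give is 0.000772, at which a lone pair would not pass an adjustment over 561 pairs, so the design could call only a set of pairs. Adipoq and Fasn, the fatty acid synthase gene, had r = 0.91 (exact permutation p = 0.00386, adjusted p = 0.309) and rho = 0.87 (p = 0.00309), and r = 0.81 without the 2 tumors farthest from the median of Adipoq. Hmgcs1, an early enzyme of cholesterol synthesis, and Cdkn1a had r = -0.79 (exact permutation p = 0.00386, adjusted p = 0.309) and rho = -0.84 (p = 0.00386), and r = -0.85 without 2 tumors. Hbb-bs and S100a8 had r = 0.76 (exact permutation p = 0.00154, adjusted p = 0.309) and rho = 0.88 (p = 0.00154), and r = 0.79 without 2 tumors. S100a8 does not stand for the neutrophil list as a whole, in which Csf3r had r = -0.66 with the mean of the others. These pairs therefore did not pass the adjustment.

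How far the tumors of each group spread is given as a description of 3 tumors per group, without a test over the 4 groups. The median SD within a group was 0.40 in IgG1, 0.34 in anti-PD-1, 0.43 in DOX/IgG1 and 0.43 in DOX/anti-PD-1. An SD above 1 was seen in 1079, 790.0, 2024 and 1557 genes, which is 7.32%, 5.36%, 13.7% and 10.6% of those kept. The groups held 21.8%, 17.8%, 31.8% and 28.5% of the residual sum of squares, and each had the largest SD of the 4 for 24.9%, 15.1%, 30.6% and 29.4% of genes. By these measures the 3 anti-PD-1 tumors were the most alike, through tumors 2 and 3: their root mean squared difference was 0.620, and the pairs with tumor 1 were at 0.816 and 0.826. The order of the other groups depended on the genes: with a mean of at least 10 TPM the median SD was 0.35 in IgG1, 0.29 in anti-PD-1, 0.34 in DOX/IgG1 and 0.37 in DOX/anti-PD-1. The root mean squared difference between DOX/IgG1 2 and 3 was 0.738, close to that of IgG1 2 and 3 (0.722), while both pairs with DOX/IgG1 1 were at 1.13. The DOX/anti-PD-1 pairs lay at 0.896, 1.03 and 0.952, all above the closest pair of each other group. Without its tumor 1, and thus from 2 tumors, the median SD was 0.24 in IgG1, 0.21 in anti-PD-1, 0.24 in DOX/IgG1 and 0.35 in DOX/anti-PD-1.

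**Figure D5:**
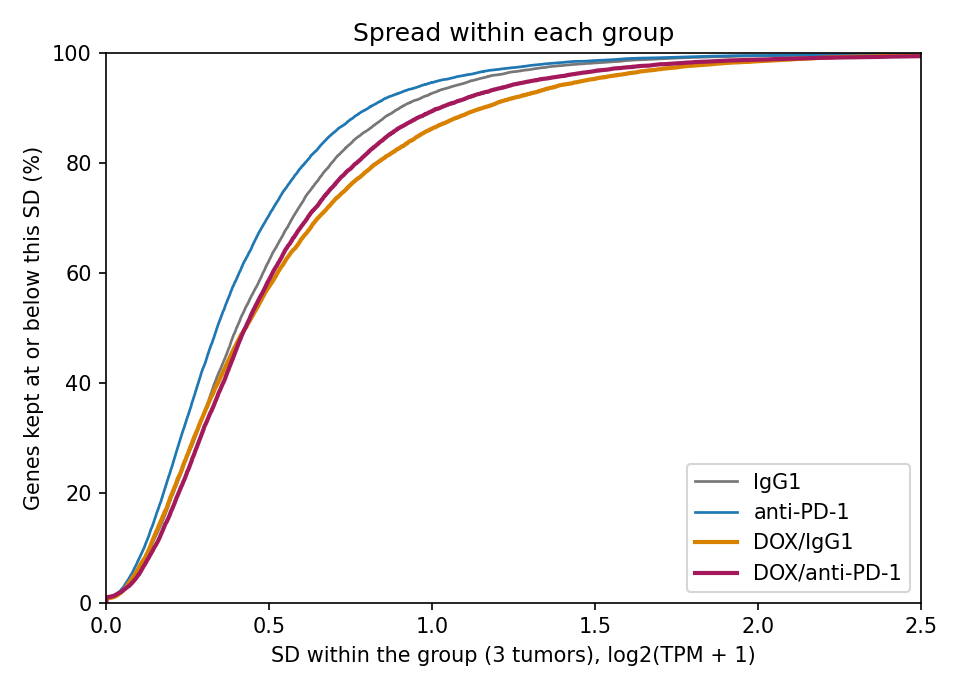
Share of kept genes (vertical axis, percent) at or below each SD within a group (horizontal axis, log2(TPM + 1), 3 tumors). Each line is a treatment group, and the axis ends at an SD of 2.5. The anti-PD-1 line lies highest (median SD 0.34), and past an SD of 1 the lines of both doxorubicin groups lie lowest.

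Gene by gene, the difference in spread was tested with limma on the log2 of the SD within a group plus 0.1. For doxorubicin 1 of 14735 genes was called (0.00679%), with lower spread and with 886 at an unadjusted p below 0.05, and for anti-PD-1 7 were called (0.0475%), all with lower spread, with 717 at an unadjusted p below 0.05. The gene called for doxorubicin was Hist1h3g, which shares 46.1% of its windows: it was at 23.0, 0 and 0 TPM in IgG1 tumors, at 0, 37.1 and 27.2 in anti-PD-1 tumors, and listed at 0 in all 6 tumors with doxorubicin. Those named for anti-PD-1 are Gm10020, Gm37419, Tlx1, Gm20441 and Cd300ld2. They were listed at 0 in the 6 tumors with anti-PD-1, except for 0.02 TPM of Gm10020 in 1 of them. Tlx1, a homeobox gene, was at 7.07 TPM in IgG1 1, and at 50.5 and 2.20 TPM in DOX/IgG1 1 and 2. Each of the 6 genes named reached 1 TPM in exactly 3 tumors, none of them in the groups of low spread, so it passed the filter only through the other groups and its lower spread was fixed by that. Their log2 ratio also depends on the 0.1 added. With 0.02 added the counts were 39 and 0 (limma, 621 genes at an unadjusted p below 0.05 for anti-PD-1), and with size factors they were 73 (54 with higher and 19 with lower spread) and 34 (11 and 23). Counts moved with each tumor. Without IgG1 1, 2 or 3 the doxorubicin count was 72, 66 and 95, without anti-PD-1 tumors 0, 37 and 69, without DOX/IgG1 tumors 29, 53 and 43, and without DOX/anti-PD-1 tumors 64, 2 and 0. In the same order the anti-PD-1 count was 24, 29 and 45, then 4, 13 and 40, then 17, 36 and 28, then 40, 4 and 0. An SD of 2 tumors has a larger error than an SD of 3. No change of spread in any gene is drawn from these counts.

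Group means were tested with limma over all 12 tumors, and a gene was called where its adjusted p was under 0.1 and its log2 difference passed 1 in size. For doxorubicin, averaged over both antibodies, 13 of 14735 genes were called (0.0882%), 6 higher and 7 lower (19 with size factors, 5 higher and 14 lower), and 1751 had an unadjusted p below 0.05. For anti-PD-1 1 gene was called (0.00679%), with 703 at an unadjusted p below 0.05. Of the 100 most variable genes limma called 0 in either test, and 11 and 6 of them had an unadjusted p below 0.05, against 11.9% and 4.77% of all genes. A large residual SD itself makes a call unlikely, since it enters the error of the test, and nothing is read from the count of 0. Xbp1, a transcription factor of secretory cells with a residual SD of 0.18, was at 780 (779.7), 1019 and 860.0 TPM in IgG1 tumors, 968, 1004 and 815 in anti-PD-1 tumors, 303, 368 and 297 in DOX/IgG1 tumors, and 593, 718 and 544 in DOX/anti-PD-1 tumors. All 6 tumors with doxorubicin lay below all 6 without, a log2 difference of -1.02 (standard error 0.16, limma adjusted p = 0.0451). Gas6, a ligand of TAM receptors (residual SD 0.24), was higher by 1.05 (standard error 0.16, limma adjusted p = 0.0451), at 133, 79.7 and 113 TPM in IgG1 tumors, 53.3, 50.3 and 63.8 in anti-PD-1 tumors, 221, 207 and 180.0 in DOX/IgG1 tumors, and 109.5, 143 and 132 in DOX/anti-PD-1 tumors. The groups with and without doxorubicin overlapped for Gas6. The median over all genes was itself 0.12 higher with doxorubicin in the values as deposited and 0.01 higher after scaling by size factors.

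Also higher with doxorubicin were Col27a1, a fibrillar collagen gene (1.77, standard error 0.28), Tbx2, a T-box factor (1.74, standard error 0.32), and St3gal4, a sialyltransferase (1.49, standard error 0.22), with limma adjusted p from 0.0451 to 0.0951. Lower were Npnt, the matrix protein nephronectin (-1.81, standard error 0.31), and the acute phase pair Saa1 and Saa2 (-2.09 and -1.78), which share 18.5% and 17.8% of windows and are uncertain as single genes (limma adjusted p from 0.0336 to 0.0906 for the 3). Agr2, a disulfide isomerase of secretory cells, was listed at 0 in DOX/IgG1 1 and in all DOX/anti-PD-1 tumors, at 5.66 and 1.37 TPM in DOX/IgG1 2 and 3, and at 4.25 to 18.3 TPM in the 6 tumors without doxorubicin. Bpifa2, a salivary protein gene, was called in both tests: it was at 14.4, 21.3 and 53.7 TPM in the DOX/IgG1 tumors and listed at 0 in the other 9. It passed the filter on low values only through that group, which is 1 of the 2 doxorubicin groups, so nothing further is read from its calls. Doxorubicin counts by limma again moved with single tumors. The count was 301 without DOX/IgG1 1 (246 higher and 55 lower), 20 without DOX/anti-PD-1 2, 7 without DOX/anti-PD-1 3, 5 without DOX/anti-PD-1 1, 3 without anti-PD-1 2 and 2 without DOX/IgG1 3. It was 0 without IgG1 2 and without anti-PD-1 1, with 1507 and 1562 genes at an unadjusted p below 0.05. The anti-PD-1 count was 5 without DOX/IgG1 1 (1041 genes at an unadjusted p below 0.05), 1, a gene with a higher level, without IgG1 3 or DOX/anti-PD-1 3, and 0 without any of the other 9, with 556 to 828 genes at an unadjusted p below 0.05. Leaving out DOX/IgG1 1, the tumor farthest from its group, thus moved both counts most.

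At the other end, of genes with a mean of at least 10 TPM, the least variable were Srsf2, a splicing factor (0.08), Atp9b, a phospholipid flippase (0.09), and Eif2a, Csnk2a2 and Ubqln1 (0.10 each), of which Csnk2a2 is a catalytic subunit of casein kinase 2. Srsf2 was at 99.6, 108 and 106 TPM in IgG1 tumors, 109, 127 and 111 in anti-PD-1 tumors, 138, 137 and 129 in DOX/IgG1 tumors, and 147, 156 and 145 in DOX/anti-PD-1 tumors. Of the 100 least variable of all genes kept, without that limit on the mean, only 1 was listed at 0 in any tumor. Over 10% of windows were shared in 5 of them.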

How the data were processed

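RNA of 12 whole tumors was measured. The authors trimmed reads with skewer, aligned them to mm10 with STAR, quantified genes with RSEM in SeqBox, and deposited log2(TPM + 1). These TPM hold no depth, so no counting error can be given. Groups came from the labels. The genes, programs and tests were chosen with earlier results of these data known. Values were tested with limma 3.58.1 in R 4.3.3 (lmFit, eBayes, two-sided, Benjamini-Hochberg), as planned for log2 values, with a trend for group means. Exact permutation tests and all other steps used Python 3.11.15 with numpy 2.4.6, scipy 1.17.1 and pandas 2.3.3. The pseudocount was 1. Windows were taken from GENCODE vM21 transcripts, which also gave coordinates, and 21860 of 21960 identifiers matched. The limma steps were tested on simulated data, in which the spread test called more genes whose spread had not been changed than it called for doxorubicin in the tumors.

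Named genes are the 30 with the largest residual SD, the lead and the most variable gene of each of 36 programs, the 5 at each end of 3 principal components, the 5 most variable per group, up to 5 called per direction and test, and, at a mean of at least 10 TPM, the 5 least and 10 most variable. Many of these are not printed, among them 1 that is not reported here. Mb, Alas2, Ucp1, Hba-a1, Ltf, Ly6g, Mpo, Csf3r, Elf5 and Epcam were named after their values were seen. Alternatives were other pseudocounts, filters and scaling, a replicate block, other measures of spread, and leaving out tumors or genes.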

Additional observations from a re-analysis of the deposited data

How the results depend on the processing

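The median residual SD of 0.48 became 0.52 with a pseudocount of 0.1, 0.34 with 5, 0.40 at a mean of at least 10 TPM and 0.37 without tumors numbered 1, a choice added after the data were seen. Leaving out single tumors gave 0.446 to 0.488, and 26 to 29 programs above the median of all genes. Of the 100 most variable genes, 9 were among the 100 largest coefficients of variation of TPM. The 100 genes shared 75 with a ranking relative to genes of like level and 84 to 95 with lists lacking a tumor. They shared 63 with the list lacking tumors numbered 1 and 32 with that lacking genes that share over 10% of windows.

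The doxorubicin difference in distance was 0.0870 at a mean of at least 10 TPM (exact permutation p = 0.0563) and 0.0357 for the median absolute residual (p = 0.182). Leaving out single tumors gave 0.0204 to 0.161, and -0.0909 to 0.0570 for anti-PD-1. With groups of 2 rescaled, added later, these were 0.0432 to 0.139, with exact permutation p below 0.05 in 10 of 12 cases (0.0959 and p = 0.0693 without IgG1 2), and -0.0632 to 0.0341. Without tumors numbered 1 the doxorubicin difference was 0.0870 and the anti-PD-1 difference 0.0278, of opposite sign. Both tumors left in a group then have the same distance, so no test is given. With a pseudocount of 0.1 or 5 the doxorubicin difference was 0.166 (exact permutation p = 0.0195) and 0.0701 (p = 0.0303). The causes were not tested.

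Spread test counts for doxorubicin (1) and anti-PD-1 (7) by limma were 0 and 0 with a pseudocount of 0.1 (696 and 585 genes at an unadjusted p below 0.05) and with no filter (738 and 634), 2 and 3 at a mean of at least 10 TPM, and 73 and 34 with size factors. They were 39 and 0 with 0.02 added to the SD (621 at an unadjusted p below 0.05 for the latter), 26 and 0 on absolute residuals (2135), 9 and 0 without tumors numbered 1 (712), and 33 and 3 without genes sharing over 10% of windows. Leaving out tumors gave 0 to 95 and 0 to 45.

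Group mean counts for doxorubicin (13) were 6 with a pseudocount of 0.1 and 73 without tumors numbered 1 (63 higher and 10 lower), and 0 to 301 without single tumors. The anti-PD-1 count of 1 was 0 by limma with a pseudocount of 0.1 or 5, at a mean of at least 10 TPM, with size factors and without neighboring tissues (661, 701, 425, 741 and 695 genes at an unadjusted p below 0.05), and 0 to 5 without single tumors. An F test over the 4 groups called 11. Marker pairs stayed at 0 by exact permutation in every setting run.

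Residuals of same-numbered tumors correlated at -0.096 to 0.134, over 0.1 in 4 of 18 pairs. Outside their group, 8 of 12 tumors correlated best with one of their own number. Whether tumors of the same number share a factor was not tested. With the replicate number as a block, the doxorubicin difference in distance was 0.0506 (exact permutation p = 0.0974), limma spread counts were 0 and 0 (966 and 776 at an unadjusted p below 0.05), and group mean counts 9 and 0 (755 for the latter).

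Depth is unknown, each group has 3 tumors, and single SDs therefore carry large errors.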
